A study of Marchantia polymorpha with 12 samples.

Results

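The subject is the response to wounding of the Marchantia polymorpha line labelled Mperf15ko. Its members are 6 of the series' 12 libraries, chosen by their labels: 3 control replicates and 3 wounded replicates of Mperf15ko. Control thalli were intact and 14 days old, and wounded thalli of the same age were collected 1 h after their blades had been wounded. Both groups carry the same genotype, so the comparison between them shows the response to wounding and not the effect of the mutation. The other 6 libraries came from the male laboratory accession Tak-1 under the same treatments, and they serve here only to share the estimate of the spread and to test where the response of Mperf15ko differed. The labels call each replicate an independent biological one with 12 plants pooled. They do not describe the lesion in MpERF15, and they do not say whether Mperf15ko is 1 clone or several. The series asks how the wound-activated transcription factor ERF15 acts in regeneration through oxylipins.

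Oxylipins are signals made from polyunsaturated fatty acids: lipases free the fatty acid from membranes, lipoxygenases add oxygen, and enzymes of the CYP74 family rearrange the product towards jasmonate-type hormones. In Marchantia the hormone is a dinor form of the jasmonate precursor, which binds the receptor COI1 and leads to the breakdown of the repressor JAZ, so that transcription factors held by JAZ are released. Liverwort thalli regenerate readily: cut pieces that lose the apical notch, where the stem cells lie and auxin is made, form a new meristem.

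Estimated reads per library came to 20.7 to 23.6 M in the control and 17.2 to 20.1 M in the wounded replicates. The 10 most abundant genes held 5.5% to 7.91% of them. Replicates of a group correlated at 0.9817 to 0.9882 (log2 CPM over genes), and no 2 of them were alike within sampling noise. Thallus identity was checked with listed genes. The small subunit of Rubisco, MpRBCS, was at 183 to 198 CPM (read counts scaled to a common library size with TMM factors) in controls and at 204 to 244 CPM in wounded thalli. The sporophyte factors MpKNOX2 and MpBELL2 and the germ line factor MpBNB had no reads in any of the 6 libraries, and the 9 sporophyte genes listed summed to 6.17 to 8.78 CPM in controls and 11.1 to 14.7 CPM in wounded thalli. Of 5 sporophyte genes tested, 4 were called higher (MpKNOX1b, MpBELL1, MpBELL4 and MpBELL5, none above 5.51 CPM in any library). The call of MpBELL4 was lost in 9 of 19 alternative fits, that of MpKNOX1b (also named MpHD7) in 3 and that of MpBELL5 in 1. Of the germ line and antheridium genes, MpDUO1 was called higher (means of 0.81 and 2.53 CPM), and MpMID stood at means of 5.24 and 4.56 CPM and was not called.

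Within 1 h of wounding 43.6% of the genes tested had changed in level, and strong changes were mostly increases. Of 14246 genes tested with edgeR, 3342 (23.5%) were called higher and 2868 (20.1%) lower at an adjusted p under 0.05. Counts of list members given below are to be read against these shares. A change of at least 2-fold was reached by 1556 of the genes called higher and by 487 of those called lower. At 8-fold or more the counts were 357 higher and 12 lower, and at 16-fold or more 204 and 5. These counts use fitted values, also for the 45 tested genes without a read in any control, whose fitted folds depend on the prior count. The median log2 fold change over all tested genes was -0.015. In 6015 of the 6210 called genes, the 3 wounded libraries lay outside the range of the 3 controls. The same libraries gave the calls, so this separation is a description and no further support for them. The share of separate groups over all genes tested is not given here. These are bulk measurements of RNA: fewer cells of a type and less RNA per cell cannot be told apart. The balance of the weak changes rested on the scaling. With upper quartile scaling the median of all genes moved to -0.133 and 39.3% of calls were higher, against 53.8% with TMM, while the genes called 2-fold or more stayed within 1.5 times of the counts given.

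The genes that rose 2-fold or more were scarce in intact thalli. Their median level went from 3.95 CPM in control to 19.2 CPM in wounded thalli, and together they took 2.6% to 2.87% of TPM (a level per transcript length) in the controls and 9.19% to 9.94% in the wounded libraries. The genes that fell 2-fold or more had a median of 12.5 CPM in control and 5.2 CPM in wounded thalli, and their part of TPM went from 1.95% to 2.16% down to 0.762% to 0.932%. In each case the wounded libraries did not overlap the controls. These shares describe genes picked by the same contrast, so they carry no test. Among genes with a control mean under 1 CPM, 29.9% rose 2-fold or more and 2.01% fell by as much. Among those between 100 and 1000 CPM the shares were 4.12% and 3.95%. Of the 130 genes above 1000 CPM, 0 rose 2-fold or more, while 9 were called higher and 71 (54.6%) were called lower, 1 of them by 2-fold or more. Of 1447 tested genes that stayed under 1 CPM in every control library, 481 were called higher, and 23 of these passed 10 CPM in every wounded library. Genes this low in controls have little room to fall and can pass the count filter through a group in which they are higher, so their shares are only a description.

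**Figure D1:**
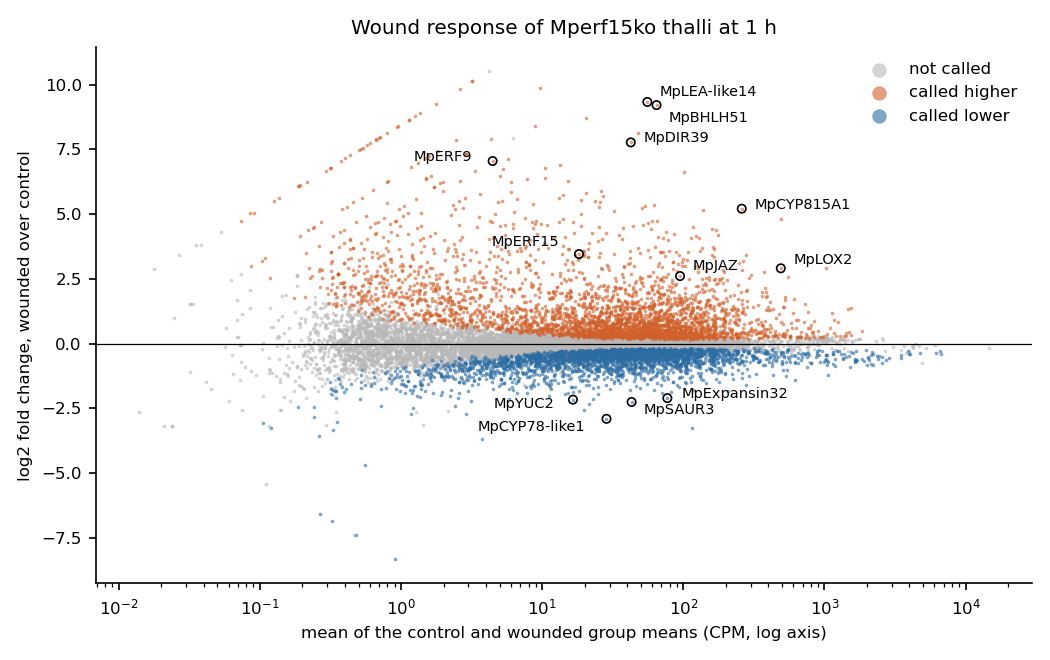
Each point is 1 of 14246 tested genes, with the mean of both group means (CPM, log axis) against the log2 fold change of wounded over control Mperf15ko thalli; orange and blue points were called higher or lower at an adjusted p under 0.05, and circles mark genes named in the text. Points above 0 reach much farther than points below it, and the straight line of points at the upper left holds genes without any read in the controls, whose fitted values depend on the prior count.

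MpERF15, the AP2/ERF factor named in the label of the line, still gave reads and rose. It had 60, 92 and 46 estimated reads in control replicates 1 to 3, and 383, 531 and 911 in the wounded ones. In CPM these were 2.50, 4.39 and 2.22 against 23.0, 26.8 and 50.4. Every wounded library lay above every control, with wounded replicate 3 the highest (edgeR log2 fold change 3.46, SE 0.364, adjusted p = 1.38e-05). Reads summed over a locus do not show whether a functional protein can be made from it. Of the 22 AP2/ERF factors tested (DNA-binding proteins often tied to stress and development), 9 rose and 6 fell, with a median of 0.05 that turned to -0.07 under upper quartile scaling. MpERF9 was close to silent in controls, at 0.0417, 0.0477 and 0.0965 CPM, and reached 7.32, 10.3 and 8.91 CPM after wounding (log2 fold change 7.05, SE 0.391, adjusted p = 3.81e-09). MpERF7 went from 10.4, 19.2 and 14.2 CPM to 62.2, 62.2 and 65.2 CPM (2.12, SE 0.156, adjusted p = 9.98e-08). MpERF21, named here after its values were seen, had group means of 3.02 ± 2.92 and 120 ± 15.1 CPM (SD, n = 3 each) and a log2 fold change of 5.34 (edgeR adjusted p = 2.29e-05). For all 3 the groups were separate. MpAP2L1 was among those that fell, from 137 ± 2.96 to 68.1 ± 10.1 CPM (SD, n = 3 each). MpERF20, also known as LAXR and tied to the resetting of cells during regeneration, was near the lower limit of detection, with 1.38, 0.859 and 0.724 CPM in controls and 0.840, 0.607 and 0.387 CPM in wounded thalli. Its groups overlapped and it was not called (-0.70, edgeR adjusted p = 0.149).

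Among listed genes of lipid metabolism around oxylipin synthesis, most phospholipases D rose, while desaturases and lipoxygenases moved in both directions. Phospholipases D cut the head group from membrane lipids, which is not the release of the fatty acid described above. Of 7 tested, 6 rose, 0 fell and 3 rose 2-fold or more. Their median log2 fold change was 0.97, against -0.015 over all genes tested. MpPLD1 stood at 3.67, 2.96 and 3.81 CPM in controls and at 14.1, 16 and 16.5 CPM in wounded thalli (2.16, SE 0.157, edgeR adjusted p = 5.66e-08). MpPLD2 stood at 106, 139 and 127 CPM and then at 392, 317 and 232 CPM, so that wounded replicate 3 was the lowest of its group and still above the controls (1.34, SE 0.218, adjusted p = 0.000364). The smallest called rise was that of MpPLD6 (0.25, edgeR adjusted p = 0.0255). Its call was lost in 6 of 19 alternative fits, among them upper quartile scaling (0.13). The member that missed the test was MpPLD8, with a value of 0.36 (edgeR adjusted p = 0.0573). Fatty acid desaturases, which supply the polyunsaturated chains, moved little. Of 14 tested, 6 rose, all under 2-fold, and 3 fell, with a median of 0.23. MpFAD4 rose most, from 21.5, 22.5 and 28.3 CPM to 50.6, 33.4 and 38.7 CPM (0.76, edgeR adjusted p = 0.000411). MpFAD9 fell most, from 61.6, 59.9 and 62.2 CPM to 33.8, 26.8 and 24.0 CPM (-1.12, edgeR adjusted p = 3.04e-06). MpFAD10 stayed at 829 to 845 CPM in controls and 802 to 846 CPM in wounded thalli.

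Lipoxygenases split into members that rose, members that fell and members that did not pass the test. Of 15 tested, 6 rose, all by 2-fold or more, 2 fell, both by 2-fold or more, and 7 were not called, with a median of 0.32. MpLOX2 was at 127, 101 and 117 CPM in control replicates 1 to 3 and at 888, 769 and 942 CPM in the wounded ones, a 7.54-fold rise (log2 fold change 2.91, SE 0.111, adjusted p = 1.05e-10). MpLOX4 went from 5.92, 6.15 and 5.79 CPM to 36.9, 29.9 and 34.2 CPM, a 5.65-fold rise (edgeR adjusted p = 2.25e-06). MpLOX1 went from 4.42, 4.53 and 5.02 CPM to 22.1, 25.7 and 27.0 CPM, a 5.36-fold rise (edgeR adjusted p = 4.88e-08). In these 3 genes every wounded library was at least severalfold above every control. MpLOX10 rose from 58.8 to 65.0 CPM in controls to 127 to 207 CPM in wounded thalli (log2 fold change 1.42), and MpLOX8 rose from under 1.3 CPM to 3.21 to 5.34 CPM (1.96). In the opposite direction, MpLOX14 fell from 224, 171 and 191 CPM to 114, 91.1 and 82.1 CPM (-1.03, SE 0.123, edgeR adjusted p = 8.68e-06), and MpLOX16 fell from 16.6, 16 and 14.4 CPM to 6.48, 4.20 and 5.87 CPM (-1.51, SE 0.169, edgeR adjusted p = 4.34e-06). MpLOX6 was called higher (2.09, edgeR adjusted p = 0.0323) from values of 0.0482 to 1.29 CPM in controls, but the call was lost in 7 of 19 alternatives, among them those without control replicate 1 or 3 or wounded replicate 1 or 2. Estimated reads of MpLOX1, MpLOX6, MpLOX8, MpLOX10, MpLOX14 and MpLOX16 were in part split with another gene, so their separate values are less certain than those of MpLOX2 and MpLOX4.

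The next enzymes moved less than the lipoxygenases. The 2 CYP74 genes tested went opposite ways: MpCYP74N2 from 70.4, 51.4 and 63.4 CPM to 85.5, 80.8 and 128 CPM (log2 fold change 0.67, adjusted p = 0.0357), and MpCYP74N1 from 28.8, 29.6 and 33.1 CPM to 25.7, 27.4 and 19.0 CPM (-0.34, edgeR adjusted p = 0.0445). Their groups did not overlap, yet both calls were weak. The first was lost in 10 of 19 alternatives, 7 of which each left out 1 library (a Tak-1 or Mperf15ko control replicate, or Mperf15ko wounded replicate 3). The second was lost in 6, including those without control replicate 2 or 3 or wounded replicate 3. On the signalling side, MpJAZ, the repressor whose own gene is a usual target of the pathway, rose evenly. It stood at 26.9, 27.1 and 25.9 CPM in controls and at 158, 153 and 177 CPM in wounded thalli, a 6.11-fold rise (2.61, SE 0.0872, adjusted p = 5.06e-11). The receptor gene MpCOI1 was slightly lower, at 63.4, 62.5 and 66.0 CPM and then 43.7, 57.5 and 55.1 CPM (-0.30, edgeR adjusted p = 0.0167), a call that was lost without control replicate 3, without wounded replicate 1 and with the 6 Mperf15ko libraries alone. MpNINJA, the adaptor of JAZ, overlapped between the groups, with 53.1 to 58.6 CPM in controls and 55.1 to 64.6 CPM in wounded thalli (0.15, adjusted p = 0.192). The difference between the responses of the lines was not called for any tested gene of these 3 lists (lipoxygenases, CYP74 enzymes, jasmonate-type signalling). It was 0.42 for MpLOX2 (SE 0.147, edgeR adjusted p = 0.221) and 0.14 for MpJAZ (SE 0.118, edgeR adjusted p = 0.729), with the higher value in Mperf15ko for both. A missed threshold does not show that the lines respond alike.

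**Figure D2:**
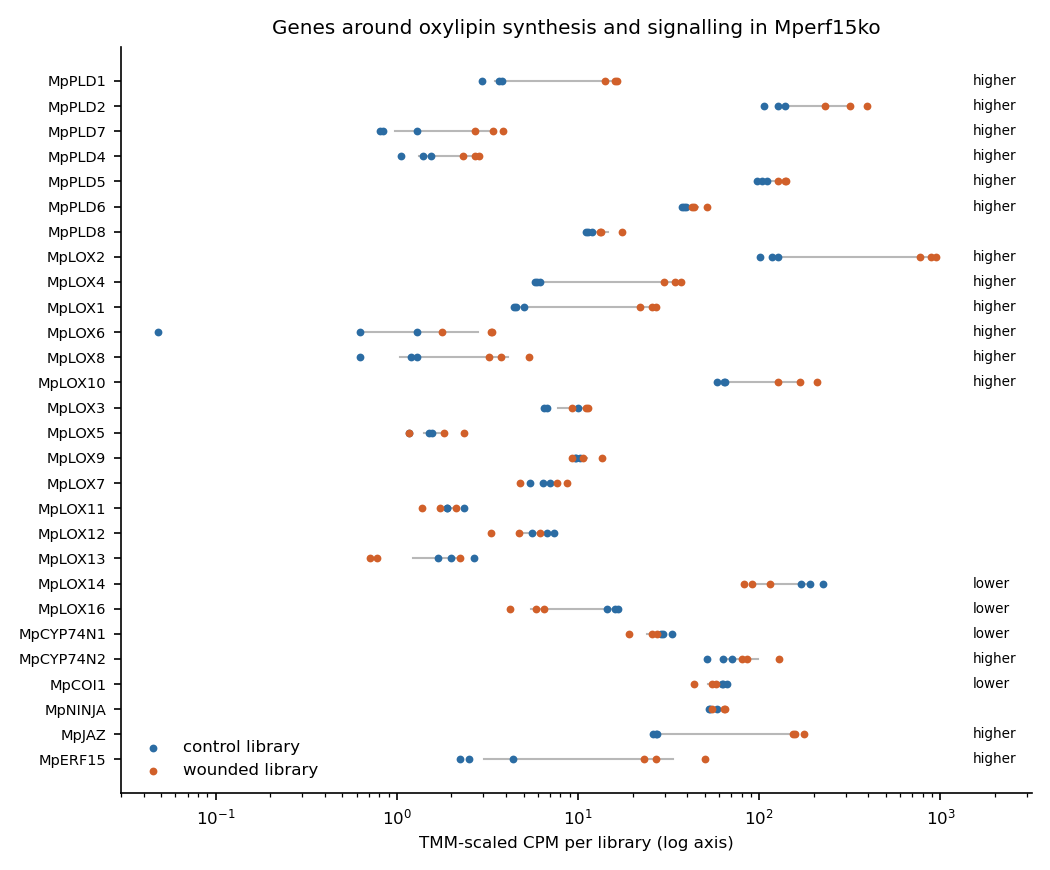
TMM-scaled CPM (log axis) of each of the 3 control (blue) and 3 wounded (orange) Mperf15ko libraries for phospholipases D, lipoxygenases, CYP74 enzymes, signalling genes and MpERF15; grey lines join the group means, and the word at the right gives the direction of genes called by edgeR. MpLOX2 and MpJAZ show the 2 groups far apart with little spread, while most lipoxygenases lower in the list have overlapping groups.

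Among other transcription factors, WRKY factors, a plant family named in many reports on defence and wounding, rose nearly throughout. Of 13 tested, 11 rose, 0 fell and 7 rose 2-fold or more, with a median of 1.24. MpWRKY9 went from 12.5, 18.0 and 17.8 CPM to 78.0, 86.7 and 86.5 CPM (log2 fold change 2.38, SE 0.133, adjusted p = 4.04e-09), and MpWRKY12 from 12.4, 18.1 and 14.3 CPM to 62.8, 84.1 and 78.6 CPM (2.33, SE 0.132, adjusted p = 4.49e-09). Wounded and control libraries were separate in both. Of 8 NAC factors, 4 rose and 0 fell; MpNAC4 went from 66.9, 84.0 and 77.3 CPM to 235, 271 and 265 CPM (1.76, adjusted p = 4.05e-09). Of 15 bZIP factors, 9 rose and 5 fell, with a median of 0.44; MpBZIP14 rose 2.64-fold, and MpBZIP8 fell by 0.73 on the log2 scale.

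The bHLH factors were divided: of 37 tested, 11 rose and 13 fell, where 23.5% of all genes rose and 20.1% fell. Their median was 0.10, and -0.02 under upper quartile scaling, yet the family held some of the steepest rises. MpBHLH51 had 0.333, 0.239 and 0.0482 CPM in controls and 114, 141 and 133 CPM in wounded thalli, a fitted 591-fold rise (9.21, SE 0.257, adjusted p = 2.79e-11). MpBHLH4 went from 3.29, 2.10 and 0.482 CPM to 191, 190 and 222 CPM (6.64, SE 0.391, adjusted p = 2.47e-07). Control reads of MpBHLH51 numbered 8, 5 and 1, so the size of its fold is uncertain although the groups lie far apart. GRAS factors mostly fell: of 12 tested, 7 fell and 2 rose, with a median of -0.70. MpGRAS10 fell from 237, 222 and 268 CPM to 124, 102 and 101 CPM (-1.15, SE 0.0966, adjusted p = 2.36e-07), and MpGRAS1 from 88.1, 89.7 and 92.3 CPM to 44.3, 41.2 and 36.7 CPM (-1.14, SE 0.0902, adjusted p = 1.26e-07). MpGRAS7 went the other way, from under 0.24 CPM in every control to 10.3, 12.1 and 13.3 CPM (6.24, SE 0.362, edgeR adjusted p = 5.3e-09). MpGCAM1, an R2R3-MYB factor needed for gemma cups and able to keep cells undifferentiated when in excess, rose from 0.792, 0.859 and 0.482 CPM to 6.90, 6.22 and 6.14 CPM (3.16, SE 0.308, adjusted p = 1.08e-06). MpC1HDZ, a homeodomain factor needed for oil body cells, rose 4.44-fold, from 12.0 to 14.7 CPM in controls to 44.4 to 72.4 CPM. The other listed oil body genes did not rise: MpERF13 and MpSYP12B were not called, and MpABCG1 was called lower although its groups overlapped.

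Single members of several signalling families rose strongly. Of 19 PP2C phosphatases, which switch off protein kinases, 9 rose and 3 fell (5 rose under upper quartile scaling). MpPP2C_F1 went from 49.6, 72.1 and 69.6 CPM to 442, 482 and 443 CPM (log2 fold change 2.84, SE 0.131, adjusted p = 6.98e-10), and MpPP2C_G from 40.1, 43.7 and 46.7 CPM to 212, 208 and 192 CPM (2.23, SE 0.0911, adjusted p = 1.84e-10). The controls of both genes stayed well under their wounded libraries. Of 29 genes of the MAP kinase cascade, 11 rose and 6 fell, with a median of 0.11 (-0.01 under upper quartile scaling); MpMAPKKK4 rose 2.64-fold and MpMAPKKK24 rose 2.93-fold. Of 20 NBS-LRR proteins, intracellular immune receptors, 10 rose and 3 fell, with a median of 0.30. Receptor-like kinases, the surface receptors, sat near the share of all genes, with 18 higher and 19 lower of 81 tested and a median of -0.03. The strongest of the receptor kinases named was MpRLK-Pelle_L-LEC4, a lectin-type kinase, which went from 0.417, 0.906 and 0.627 CPM to 15.8, 19.3 and 17.1 CPM (4.75, SE 0.245, adjusted p = 2.01e-09). The peptide gene MpIDA2 had 1, 1 and 0 reads in the controls and 59, 44 and 70 in the wounded libraries. MpCLE2, a peptide gene active in the meristem, rose from 10.3, 12.2 and 19.0 CPM to 34.6, 33.0 and 35.8 CPM (1.32, edgeR adjusted p = 1.77e-05). MpNOX1, an NADPH oxidase that makes reactive oxygen, rose by 0.27 on the log2 scale (adjusted p = 0.00526), and under upper quartile scaling the value was 0.15 and the call was lost.

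Single genes of other hormone pathways moved in both directions. MpNCED, which makes the precursor of abscisic acid, rose from 0.250, 0.191 and 0.0482 CPM to 2.52, 4.80 and 2.55 CPM (log2 fold change 4.26, SE 0.542, adjusted p = 1.54e-05). MpSNRK2A, a kinase activated by abscisic acid, rose 1.89-fold, and the receptor gene MpPYL1 fell by 1.01 on the log2 scale. In the cytokinin list of 10 tested genes, 2 rose and 2 fell, which is near the shares of all genes (23.5% and 20.1%): the receptor gene MpCHK1 went from 10.6, 12.9 and 13.4 CPM to 36.9, 34.5 and 37.6 CPM (1.56, adjusted p = 3.58e-08), the response regulator gene MpRRB fell by 0.86 on the log2 scale, and MpCKX1, whose product breaks cytokinin down, fell from 14.9, 18.4 and 16.2 CPM to 4.56, 5.71 and 8.08 CPM (-1.43, edgeR adjusted p = 2.93e-05). In ethylene signalling, MpEIN2 rose 1.5-fold and MpEIL fell by 0.65 on the log2 scale.

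Genes of phenylpropanoid and phenolic metabolism were among the strong rises, at the entry of the pathway and at later steps. For comparison, 23.5% of all genes tested were called higher and 20.1% lower. Of 10 phenylalanine ammonia-lyases, which open the pathway, 4 rose and 3 fell, with a median of 0.35; MpPAL7 went from 2.13, 0.811 and 1.11 CPM to 16.9, 17.6 and 17.5 CPM (log2 fold change 3.65, SE 0.256, adjusted p = 9.82e-08), and MpPAL8 fell by 0.73 on the log2 scale. Of 5 cinnamate hydroxylases and coumarate ligases, the next 2 steps, 3 rose and 0 fell. Mp4CL1 went from 14.8, 20.8 and 16 CPM to 143, 150 and 164 CPM (3.15, SE 0.115, adjusted p = 6.94e-11), and Mp4CL2 from 116, 102 and 102 CPM to 474, 445 and 443 CPM (2.09, SE 0.0866, adjusted p = 2.07e-10). In both, the lowest wounded library was above the highest control by severalfold. Of 21 polyketide synthases of the chalcone synthase type, which open the flavonoid branch and others, 12 rose and 3 fell, with a median of 0.53. MpPKS/CHS21 went from 5.63, 4.58 and 2.61 CPM to 124, 105 and 94.7 CPM (4.64, SE 0.218, adjusted p = 4.08e-09).

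Dirigent proteins, which steer the coupling of phenolic radicals, had 21 of 51 tested members higher and 5 lower, with a median of 0.32. Over all genes tested, 23.5% were higher and 20.1% lower. Among the 51 are 4 without a read in any control, which passed the filter through other groups alone, so the counts only describe the list. With these 4 at the bound set by a floor of 3 reads per control library, the median was 0.31. The number lower was 3 without control replicate 1, control replicate 3 or wounded replicate 3. MpDIR39 led them, at 0.375, 0.477 and 0.289 CPM in controls and 74.1, 85.5 and 93.8 CPM in wounded thalli (7.77, SE 0.308, edgeR adjusted p = 9.72e-10), with part of its reads split with another gene. Of 42 polyphenol oxidases, copper enzymes that brown wounded tissue, 13 rose, all by 2-fold or more, and 7 fell, with a median of -0.18. The number that fell was 4 without control replicate 1 or wounded replicate 2. MpPPO20 went from 22.5, 17.9 and 15.3 CPM to 229, 142 and 169 CPM (3.27, SE 0.179, adjusted p = 1.12e-08), MpPPO2 from at most 0.382 CPM to 13.2, 11.9 and 10.2 CPM, and MpPPO31 from 0.250, 0 and 0 CPM to 8.70, 9.75 and 13.0 CPM. The wounded libraries were above all controls in each of the 3. Of 33 glutathione transferases, detoxifying enzymes, 14 rose and 4 fell; MpGST35 went from 77.2, 90.6 and 82.4 CPM to 555, 565 and 450 CPM (2.65, SE 0.112, edgeR adjusted p = 2.63e-10). Cytochromes P450 outside the CYP74 family were near the share of all genes in both directions, with 24 higher and 25 lower of 91 tested. Among them MpCYP815A1 went from 16.2, 13.5 and 11.1 CPM to 511, 473 and 530 CPM (5.21, SE 0.146, edgeR adjusted p = 2.34e-11), and MpCYP94-like, of a family that oxidises jasmonate conjugates in flowering plants, went from 0.417, 0.429 and 0.289 CPM to 27.7, 31.2 and 31.8 CPM (6.29, SE 0.27, edgeR adjusted p = 3.12e-10). Other steep rises were those of MpPR15c, named as a pathogenesis-related protein, and MpSUT4, named as a sucrose transporter.

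Class III peroxidases and GH17 glucanases had more falls than rises. Of 125 class III peroxidases tested, 41 were called lower and 11 higher, with a median of -0.62, and 18 fell 2-fold or more. Without wounded replicate 2 the counts were 22 lower and 7 higher of 127 tested. The share lower was then 17.3%, against 16.8% of all genes in the same fit, so that its excess over all genes rested on that library. The share higher was 5.51%, against 19.9% of all genes, and the median of the list was still -0.55. MpPOD7 fell from 34.8, 37.5 and 56.3 CPM to 16.2, 10.4 and 16 CPM (log2 fold change -1.60, SE 0.205, adjusted p = 3.32e-05), while MpPOD18 rose from 0.959, 1.05 and 0.531 CPM to 6.78, 9.25 and 10.4 CPM (3.37, SE 0.296, adjusted p = 3.77e-07). Control and wounded libraries were separate for both genes. Of 24 glucanases of family GH17, 11 fell and 3 rose, with a median of -0.68; MpGH17.26 fell from 141, 134 and 167 CPM to 66.3, 62.9 and 71.8 CPM (-1.14, edgeR adjusted p = 3.01e-07). Of 15 PR1 proteins 1 rose and 2 fell, of 21 chitinases 4 rose and 2 fell, and of 46 cupins 10 rose and 13 fell. The PR1 and chitinase counts were below the shares of all genes (23.5% higher, 20.1% lower) in both directions.

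LEA proteins (late embryogenesis abundant) are small hydrophilic proteins known for protecting cells as they dry. Of 72 members 65 passed the count filter, and of these 44 rose, 42 of them by 2-fold or more, and 6 fell. Among the 65 are 11 without a read in any control, which passed the filter through other groups alone, so the counts describe the list and support no ranking of it. The median fitted log2 fold change was 2.70. It was also taken with the 11 at the bound set by a floor of 3 reads per control library, which gave 1.55. MpLEA-like14 went from 0.125, 0.239 and 0.145 CPM to 98.9, 122 and 114 CPM (9.33, SE 0.296, edgeR adjusted p = 6.94e-11), from 3, 5 and 3 reads in the controls. MpLEA-like42 went from 0.458, 0.811 and 0.289 CPM to 32.4, 25.6 and 24.8 CPM (5.72, SE 0.228, edgeR adjusted p = 1.39e-10), and MpLEA-like18 from 0.709, 1.29 and 0.338 CPM to 24.3, 58.3 and 28.1 CPM (5.56, SE 0.502, adjusted p = 6.96e-06), with wounded replicate 2 well above the other two. MpLEA-like62 was already expressed in controls and rose from 14.2, 19.8 and 15.4 CPM to 80.7, 132 and 88.3 CPM (2.61, SE 0.189, adjusted p = 1.95e-07). The exceptions included MpLEA-like21, which fell from 33.4, 31.4 and 40.4 CPM to 14.1, 9.50 and 8.69 CPM (-1.71, SE 0.167, adjusted p = 1.19e-06). Members of this list lie next to each other and resemble each other, and reads of many were split between genes, so its count is not one of independent genes.

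Several genes of auxin synthesis and transport fell. MpYUC2, whose enzyme makes auxin at the notch, fell from 25.6, 27.1 and 28.1 CPM to 7.92, 5.31 and 4.87 CPM (edgeR log2 fold change -2.16, SE 0.173, adjusted p = 1.43e-07). MpTAA, which acts one step before it, fell from 10.2, 9.88 and 16 CPM to 4.92, 5.0 and 9.02 CPM (-0.92, adjusted p = 0.00555), and MpAUX1, a carrier that brings auxin into cells, fell from 50.5, 26.5 and 35.7 CPM to 7.44, 6.12 and 12.1 CPM (-2.14, SE 0.337, adjusted p = 0.000414). The groups were separate in all 3, with wounded replicate 3 the least reduced for MpTAA and MpAUX1. Of 15 auxin genes tested, 7 fell and 2 rose, with a median of -0.30. The 2 that rose were MpGH3A, which conjugates auxin or related acids (5.14-fold, from 56.4 to 65.6 CPM up to 285 to 360 CPM), and the transporter gene MpPIN3 (3.8-fold). Of 13 SAUR genes, small auxin-responsive genes, 6 rose and 4 fell. The shares over all genes tested were 23.5% higher and 20.1% lower. MpSAUR3 fell from 64.7, 72.1 and 76.5 CPM to 17.5, 14.3 and 13.1 CPM (-2.25, SE 0.114, adjusted p = 1.65e-09), and MpSAUR8 rose from 0.458, 0.525 and 0.289 CPM to 10.7, 12.1 and 8.64 CPM (4.60, SE 0.286, edgeR adjusted p = 1.1e-08).

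Genes of wall loosening and of cell division were also among those that fell. Of 36 expansins tested, 13 fell and 3 rose, with a median of -0.42; without wounded replicate 2 the number that fell was 8 (21.6%, against 16.8% of all genes in that fit). MpExpansin32 fell from 138, 134 and 101 CPM to 38.5, 27.8 and 21.0 CPM (edgeR log2 fold change -2.10, SE 0.184, adjusted p = 1.09e-06), and the pectate lyase gene MpPL1.3 fell from 139, 112 and 81.3 CPM to 36.8, 22.7 and 30.3 CPM (-1.89, SE 0.199, edgeR adjusted p = 7.84e-06). MpCYP78-like1, of a P450 family tied to organ growth in flowering plants, had the largest fall of the genes chosen by rank, from 49.6, 42.8 and 58.4 CPM to 9.54, 2.88 and 7.97 CPM (-2.90, SE 0.33, adjusted p = 2.99e-05). In these 3 genes no wounded library reached the lowest control. The MCM helicase unwinds the double strand ahead of DNA synthesis, and 7 of its 9 genes tested fell while 0 rose, with a median of -0.83; MpMCM6 went from 7.63, 8.06 and 6.66 CPM to 2.16, 2.07 and 2.88 CPM (-1.65, SE 0.19, edgeR adjusted p = 5.63e-06). Of 6 cyclins and cyclin-dependent kinases 3 fell and 0 rose, and of 25 histones 8 fell and 2 rose. Over all genes tested 20.1% were called lower and 23.5% higher. The remaining falls by rank were those of MpFRO2, a ferric reductase gene, MpCYP829-like12, MpEXL1, MpRLK-Pelle_CR4L4, MpLEA-like21 and MpDOXC28, by 1.68 to 1.94 on the log2 scale. Of 7 markers of the apical notch tested, 3 were lower (MpCLV1 and the auxin genes MpYUC2 and MpTAA described above) and 2 higher (MpCLE2 and MpHD6, the WOX gene). Their summed level was 295 to 338 CPM in controls and 243 to 257 CPM in wounded thalli. Without MpCLV1 the sum was 141 to 176 CPM in controls and 175 to 193 CPM in wounded thalli, so that the fall of the sum rested on this receptor gene. MpCLV1 fell from 154, 162 and 162 CPM to 68.7, 65.8 and 58.0 CPM (-1.31, SE 0.106, adjusted p = 1.7e-07). Among genes listed for the gemma cup 3 of 4 were higher, with a summed level of 134 to 148 CPM in controls and 279 to 380 CPM in wounded thalli. Most of this sum was MpKAI2B, at 83.7 to 95.8 CPM in controls and 178 to 290 CPM in wounded thalli. MpSMXL added 40.2 to 41.1 CPM in controls and 73.3 to 81.8 CPM in wounded thalli, and MpGCAM1 at most 6.9 CPM. MpKAI2A was not called (-0.14). How specific these genes are to the cup was not tested. Of 3 genes listed for rhizoids 1 was lower (summed level 216 to 243 against 187 to 212 CPM). The part of such cell types in the results above was not tested.

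**Figure D3:**
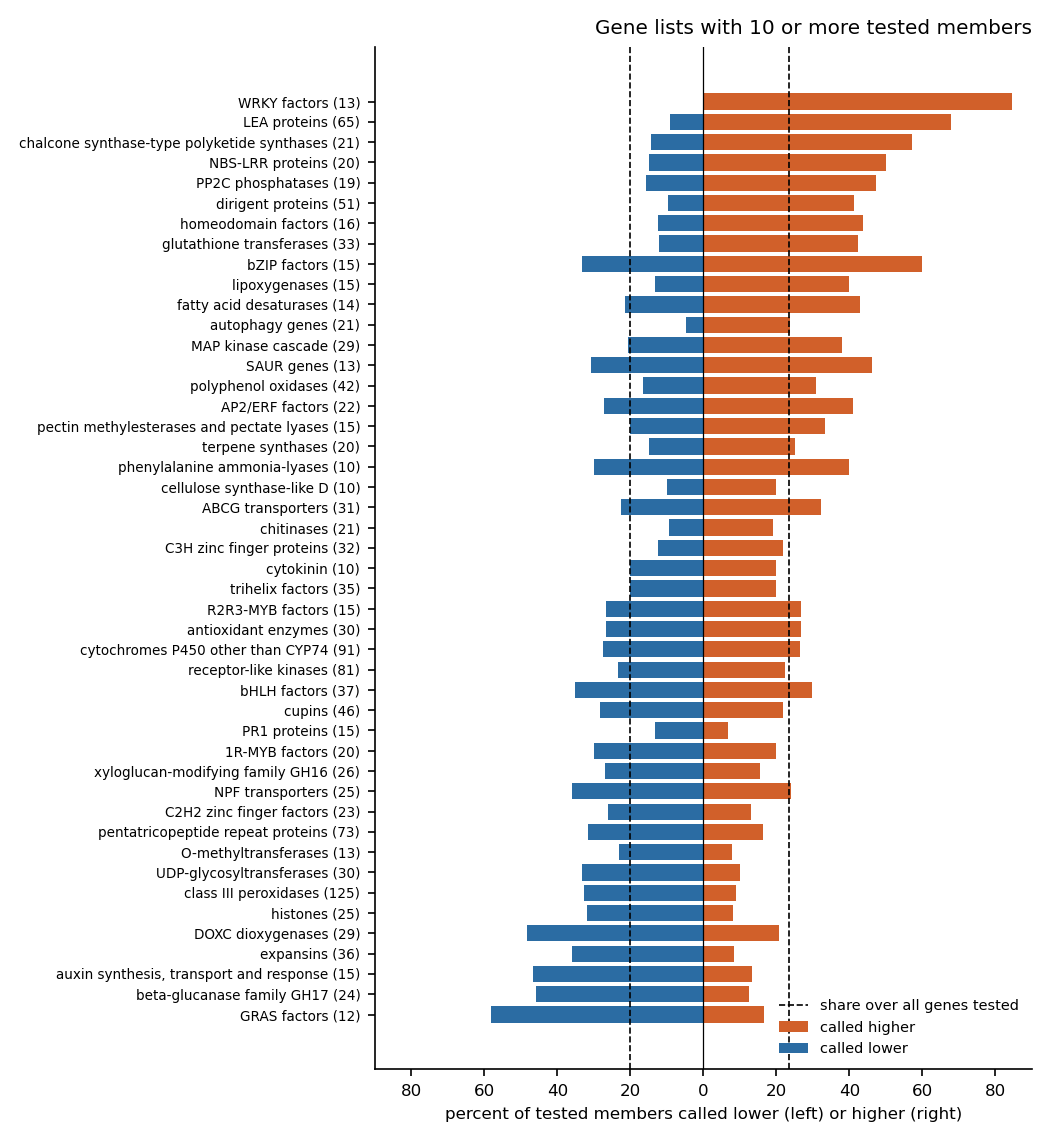
Bars give the percent of tested members of each list called higher (orange, right) or lower (blue, left) in wounded against control Mperf15ko thalli, with the number tested in brackets; dashed lines are the shares over all genes tested, 23.5% higher and 20.1% lower. WRKY factors extend farthest to the right, and GRAS factors, DOXC dioxygenases, auxin genes and GH17 glucanases extend far to the left. The bar of LEA proteins includes 11 members without a read in any control, so it is not ranked.

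Most of the 5 most abundant genes by mean TPM did not pass the test. This does not hold for abundant genes at large: of the 130 genes with a control mean above 1000 CPM, 71 were called lower and 9 higher. The 5 genes with the highest mean TPM in wounded Mperf15ko had no symbol, and 4 of them were not called: Mp4g10850, Mp2g12010, Mp2g12030 and Mp2g07490. Mp7g09180 fell from 11485 to 8927 TPM (group means; log2 fold change of CPM -0.36, edgeR adjusted p = 0.00405). The largest gains in mean TPM were those of Mp2g19940, from 1743 to 4532 TPM, and Mp5g03550, from 1605 to 4100 TPM. Mp2g05530, Mp6g17240 and Mp4g23890 followed, with gains of 1381, 1203 and 1164 TPM. In CPM, Mp2g19940 stood at 844, 856 and 867 in controls and 2304, 2433 and 1966 in wounded thalli, with no overlap (1.38, SE 0.132, adjusted p = 8.82e-07).

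Some of the genes that rose were neighbours. Along the gene order of the reference assembly, 64 runs of 3 or more adjacent loci, with 219 genes, were each called higher 2-fold or more. Of these runs, 19 had at least 4 loci and 8 had 5, and for falls of the same size there were 4 runs, all of 3. Rises of 2-fold or more were 10.9% of genes tested and falls 3.42%, so the numbers of runs are not a like comparison. The size of change in a run is the fitted one. One of the 8 includes a pair of loci with identical values, and at least 1 other ends in a locus whose bound falls short of 2-fold. Both are described below. No expected number was computed, and overlap of transcripts or reading through from one gene to the next was not tested. One run of 5 on chromosome 2 holds MpBHLH2, Mp2g00900, MpBHLH3, Mp2g00920 and MpBHLH4. MpBHLH2 went from 9.54, 18.4 and 9.79 CPM to 199, 217 and 225 CPM, and MpBHLH3 from 14.7, 12.0 and 10.3 CPM to 61.4, 65.3 and 64.7 CPM, while the locus between them, Mp2g00900, reached only 2.58 to 2.76 CPM. Mp2g00920 had no read in any control and 1.21 to 1.44 CPM after wounding, at least 9.64-fold higher against a floor of 3 reads per control library.

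A pair of runs on chromosome 5 were made up mainly of dirigent genes. In the first, from MpDIR36 to MpDIR32, control levels ranged from 17.5 to 20.8 CPM for MpDIR36 down to 0.531 to 0.750 CPM for MpDIR33. The steepest rise was at MpDIR32, from 0.917, 0.716 and 1.30 CPM to 22.1, 24.5 and 30.0 CPM (edgeR log2 fold change 4.70, SE 0.33, adjusted p = 2.09e-07). The second run joins MpDIR41, MpPPO28, Mp5g16500, MpDIR39 and MpDIR38. MpPPO28 and Mp5g16500 had identical values in all 6 libraries (2.58, 2.38 and 5.2 CPM after wounding), so they count as 1 measurement. MpDIR38 had no control read and was at least 7.75-fold higher against the same floor. The run of MpLEAL3 and MpLEA-like34 to MpLEA-like37 on chromosome 6 was low throughout, with at most 7.18 CPM in a wounded library, and wounded replicate 2 was the highest in each of its 5 genes. The other four runs held genes without symbols, apart from MpGH17.15. Mp6g00390, in the run with MpGH17.15, went from 55.1, 124 and 112 CPM to 618, 744 and 598 CPM (2.75, SE 0.243, edgeR adjusted p = 2.8e-06), and Mp5g07480 went from at most 0.0965 CPM to 32.2, 52.7 and 38.2 CPM (8.73, SE 0.291, edgeR adjusted p = 5.06e-11). In the run that begins with Mp1g09200, the last locus, Mp1g09240, had no control read and at most 0.221 CPM after wounding. Its bound was only 1.07-fold against a floor of 3 reads per control library. A 2-fold rise was thus not shown for it, and its place in the run rests on the fitted value. Its call was lost without control replicate 1 or wounded replicate 3. The call of Mp4g03320, at the start of another run, was lost without control replicate 2 or 3 or wounded replicate 2.

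**Figure D4:**
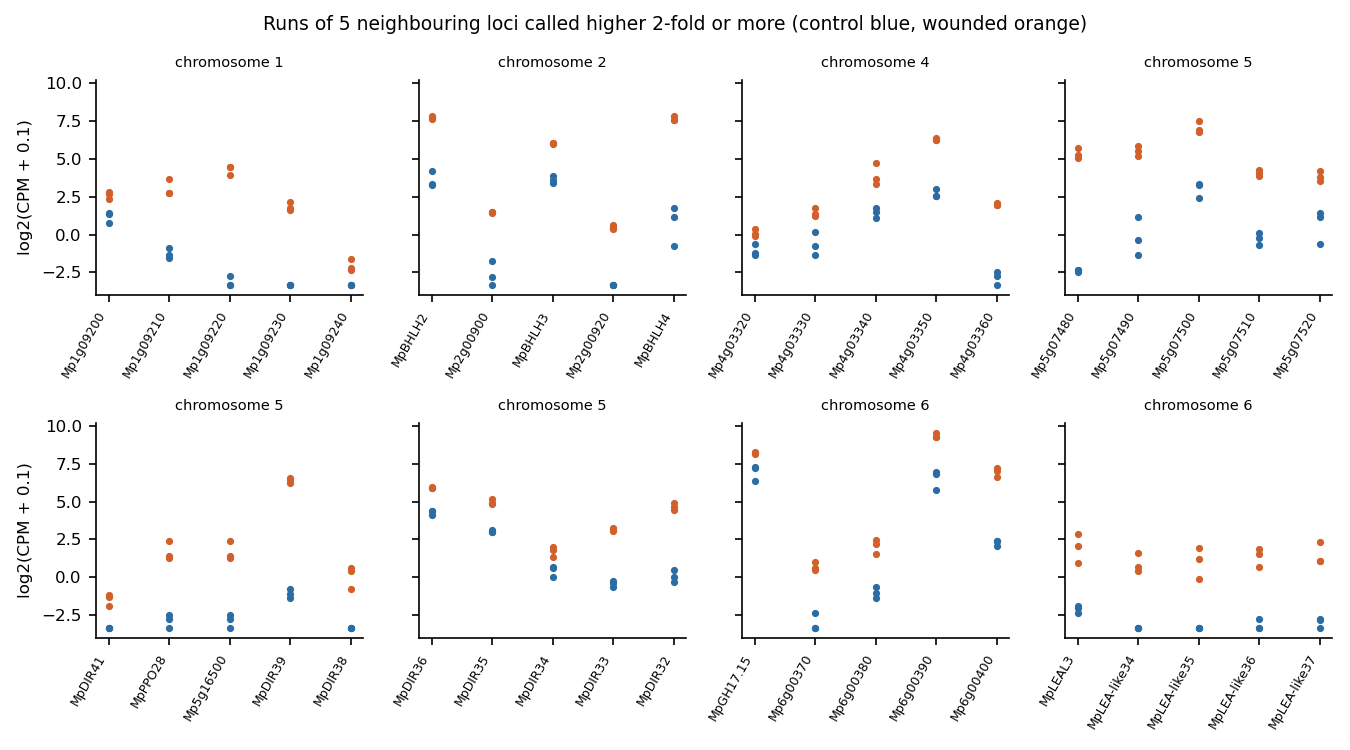
Each panel is 1 of the 8 runs of 5 neighbouring loci called higher 2-fold or more by fitted values, in the order of the reference assembly. Points are log2(CPM + 0.1) of the 3 control (blue) and 3 wounded (orange) Mperf15ko libraries. Loci of a run differ widely in level, from 744 CPM in a wounded library for Mp6g00390 to no read in any control for MpDIR41.

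The response of Mperf15ko was set against that of Tak-1 gene by gene, by testing the difference of the 2 wound responses. It was called for 152 genes (1.07% of those tested), 57 with the higher log2 fold change in Mperf15ko and 95 with the lower. Of the 1556 genes that rose 2-fold or more in Mperf15ko, 1419 were also called higher in Tak-1, 137 were not called there and 0 were called lower, and 60 had a called difference. Of the 487 that fell by as much, 389 were also called lower in Tak-1, 98 were not called and 5 had a called difference. A gene called in one line and not in the other is not shown to differ by that. These counts start from genes chosen in Mperf15ko, so they do not rank the lines. The 152 were less stable than the wound response itself: the number was 470 by DESeq2, 324 without Mperf15ko control replicate 1, 101 without Tak-1 control replicate 2, 73 without Mperf15ko control replicate 3, and 61 and 65 without Tak-1 wounded replicates 2 and 3.

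The largest shortfall among named genes was that of the lectin-type receptor kinase MpRLK-Pelle_L-LEC28. In Mperf15ko it stood at 4.25, 3.01 and 4.53 CPM in controls and at 6.96, 4.70 and 6.09 CPM after wounding. In Tak-1 it stood at 2.84, 2.67 and 2.42 CPM and then at 29.7, 35.0 and 38.8 CPM (difference of log2 fold changes -3.12, SE 0.258, adjusted p = 0.000111). The small rise in Mperf15ko was called (0.58), but not under upper quartile scaling, with the Mperf15ko libraries alone, or without control replicate 2 or wounded replicate 1 or 3. MpGT8.8, a glycosyltransferase gene, had 30.1, 38.5 and 39.2 CPM and then 48.9, 44.6 and 39.3 CPM in Mperf15ko, against 32.8, 37.8 and 33.8 CPM and then 118, 140 and 137 CPM in Tak-1 (-1.62, SE 0.161, edgeR adjusted p = 0.00038). The control levels of the lines overlapped for MpGT8.8 and were slightly higher in Mperf15ko for MpRLK-Pelle_L-LEC28. In both genes the wounded libraries of Tak-1 were all above those of Mperf15ko. MpPLATZ2, a zinc-binding factor, differed otherwise: it stood at 86.2 to 110 CPM in controls and 80.8 to 112 CPM in wounded thalli of Mperf15ko, and went from 47.0 to 50.5 CPM to 106 to 132 CPM in Tak-1 (-1.31, SE 0.176, edgeR adjusted p = 0.00412). Here the lines were apart in controls and overlapped after wounding. MpNAC7 rose in both lines, from 16.9, 27.1 and 20.3 CPM to 43.4, 55.0 and 44.4 CPM in Mperf15ko and from 10.6 to 11.4 CPM to 60.9 to 74.9 CPM in Tak-1 (-1.46, SE 0.21, edgeR adjusted p = 0.00694). MpMAPKKK10 rose to 31.7 to 33.5 CPM in Mperf15ko and to 51.1 to 68.4 CPM in Tak-1 (-1.25, SE 0.171, edgeR adjusted p = 0.00412).

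Several named genes with the larger log2 fold change in Mperf15ko had lower controls there, which by itself raises a fold change. MpLEA-like14 had 0.125 to 0.239 CPM in Mperf15ko controls and 1.45 to 3.38 CPM in Tak-1 controls, and after wounding 98.9 to 122 CPM and 71.0 to 89.5 CPM (difference 4.45, SE 0.452, edgeR adjusted p = 0.000781). MpPR15c had 0.0954 to 0.292 CPM in Mperf15ko controls and 3.06 to 7.43 CPM in Tak-1 controls, and its wounded level was lower in Mperf15ko, at 17.5 to 26.1 CPM against 37.9 to 40.1 CPM (3.81, SE 0.555, adjusted p = 0.00893). MpCYP94-like had 0.289 to 0.429 CPM and 1.31 to 2.76 CPM in the 2 sets of controls, and 27.7 to 31.8 CPM and 19.2 to 25.1 CPM after wounding (2.67, SE 0.371, edgeR adjusted p = 0.00476). For these 3 genes the ratio between the lines was larger in intact than in wounded thalli, while the gap in CPM was larger after wounding. MpABCB6, a transporter gene, was different: its controls were slightly lower in Mperf15ko, at 19.4 to 24.8 CPM against 25.4 to 30.5 CPM in Tak-1, and it reached 84.9 to 105 CPM in Mperf15ko and 47.1 to 62.3 CPM in Tak-1 (1.08, SE 0.179, edgeR adjusted p = 0.0123).

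**Figure D5:**
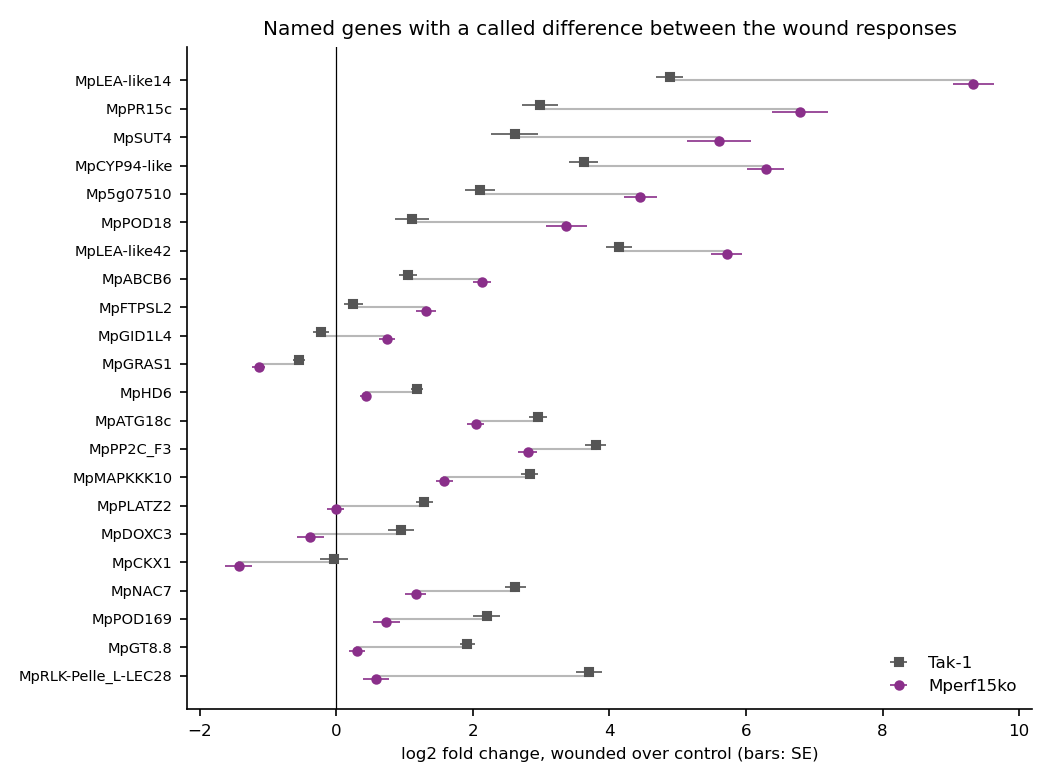
Log2 fold change of wounded over control thalli with its SE in Tak-1 (grey squares) and Mperf15ko (purple circles) for the named genes with a called difference between the responses, ordered by that difference. MpRLK-Pelle_L-LEC28 lies at 3.70 in Tak-1 and 0.58 in Mperf15ko, and MpLEA-like14 at 4.88 and 9.33.

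The 3 wounded libraries of Mperf15ko differed a little in how strongly they responded. For each, genes were called without that library, and the median log2 ratio to the mean of the controls was then taken in it. Over genes called higher 2-fold or more it was 1.44, 1.64 and 1.51 in wounded replicates 1, 2 and 3, and over genes called lower by as much it was -0.92, -1.17 and -0.99. In replicate 2, 99.8% of the genes called higher lay above the control mean, against 98.8% in replicate 1 and 99.5% in replicate 3. MpERF15 itself was highest in replicate 3, and the low LEA genes and MpLEA-like18 were highest in replicate 2.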

How the data were processed

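Per the labels' protocols, RNA was column-extracted and libraries were made with a stranded mRNA kit. Per the submitters' processing notes, CASAVA and Salmon 0.7.2 were used; no source used here names the build, annotation or settings. Per the file headers, the authors deposited estimated counts and TPM for 24751 transcripts. Estimated counts were summed to 19421 genes and rounded. After filterByExpr, 14246 genes were fitted as 4 group means over all 12 libraries with edgeR 4.0.16 (TMM, robust quasi-likelihood test) in R 4.3.3, so that both lines share 1 estimate of the spread (common biological coefficient of variation 0.126). All adjusted p-values are edgeR's by Benjamini-Hochberg over all tested genes, called under 0.05. SE was derived from the fold change and test statistic. For 45 tested genes without a control read, bounds (counting error only) replace fitted folds where single genes are described. Counts by size of change, also within lists, and runs of neighbours rest on fitted values. Symbols and gene order came from MpTak2_v7.1 (89.5% of gene IDs matched, 3091 with a symbol), and lists were filled from symbols. Named genes were those of the oxylipin lists, the 12 steepest rises and falls with a mean of at least 10 CPM and a symbol, up to 3 called members per list by lowest p, up to 8 per direction for the difference, the 5 top genes by TPM and by its gain, the longest runs of neighbours, and markers. Members and lists were chosen with earlier results of these data known. Alternatives were other scalings, DESeq2 1.42.0, no filter, the Mperf15ko libraries alone, a replicate block, transcripts as features, and leaving out each library.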

Additional observations from a re-analysis of the deposited data

Results flagged for a closer look

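The named genes below had a wound response that differed between Mperf15ko and Tak-1 by the test of the difference itself (edgeR, adjusted p under 0.05 over all genes tested). Each value is the log2 fold change in Mperf15ko minus that in Tak-1, and no cause was tested.

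The value was positive for MpLEA-like14 (4.45), MpPR15c (3.81), MpSUT4 (2.99), MpCYP94-like (2.67), Mp5g07510 (2.35), MpPOD18 (2.26), MpLEA-like42 (1.58), MpABCB6 (1.08), MpFTPSL2 (1.07) and MpGID1L4 (0.96). MpGID1L4 and the terpene synthase gene MpFTPSL2 were called higher in Mperf15ko and not called in Tak-1: MpFTPSL2 went from 17.2, 23.0 and 15.8 CPM to 45.6, 42.8 and 50.8 CPM in Mperf15ko, and from 22.0 to 29.0 CPM to 27.8 to 34.8 CPM in Tak-1. Mp5g07510, a locus in a run of neighbours that rose, was the only one of its run with a called difference.

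The value was negative for MpRLK-Pelle_L-LEC28 (-3.12), MpGT8.8 (-1.62), MpPOD169 (-1.47), MpNAC7 (-1.46), MpCKX1 (-1.39), MpDOXC3 (-1.32), MpPLATZ2 (-1.31), MpMAPKKK10 (-1.25), MpPP2C_F3 (-1.0), MpATG18c (-0.90), MpHD6 (-0.75) and MpGRAS1 (-0.59). MpCKX1 and MpGRAS1 fell in Mperf15ko. MpCKX1 fell to 4.56 to 8.08 CPM there, still above every Tak-1 library. Its level in Tak-1 was 3.55 to 4.50 CPM in controls and 3.22 to 4.10 CPM after wounding. MpHD6, the WOX homeodomain gene among the notch markers, went from 88.5, 108 and 105 CPM to 124, 143 and 138 CPM in Mperf15ko and from 59.8 to 62.8 CPM to 136 to 141 CPM in Tak-1, so that the wounded groups overlapped.

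Among these genes, 11 of 22 kept the call in each of 17 alternatives. MpSUT4 lost it in 10, MpLEA-like42 in 9, MpGRAS1 in 8, MpDOXC3 in 7, and MpFTPSL2 and MpCKX1 in 6 each. For MpFTPSL2 these were the fits without Tak-1 control replicate 1 or 2, Tak-1 wounded replicate 1 or 3, Mperf15ko control replicate 3 or Mperf15ko wounded replicate 3. For MpCKX1 they were those without Tak-1 control replicate 1 or 3, Tak-1 wounded replicate 2 or 3, or Mperf15ko control replicate 2 or 3.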

How the results depend on the processing

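The counts of genes called higher and lower in the wound response of Mperf15ko, in all and at 2-fold or more, stayed within 1.5 times under each alternative run. Of 262 named genes called in it, 230 kept the call in all of up to 19 alternatives, and 1 changed direction. This was MpHD7, the sporophyte gene MpKNOX1b, at -0.17 with transcripts as features, where a gene takes the value of its most abundant transcript. The cause was not tested. For the difference of the wound responses, DESeq2 called 195 genes higher and 275 lower. When 1 library was left out, 19 to 76 genes were called higher and 39 to 248 lower. The fit with a replicate block called 5705 genes in the wound response (3087 higher, 2618 lower) and 111 in the difference (42 higher, 69 lower). Replicate numbers were not taken as pairs: deviations of same-numbered control and wounded libraries correlated at 0.0885, 0.225 and 0.0873. Each library correlated best with its own number, a hint from the data and not from the design. The block ended the call of 8 named genes in the wound response and of 5 in the difference. Of 1102 counts of list members compared, 32 moved by over 1.5 times. Genes under about 1 CPM rest on few reads, and 5175 genes were not tested.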
